A study of Mus musculus with 8 samples.

Results

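The cells described here were the EpCAM+ fraction of MCa-P1362, a mouse mammary tumour line, sorted by flow cytometry from cultures that the sample titles call monoculture and coculture. Genes were taken by level. Of 24421 gene names in the files, 11107 reached 1 FPKM, a level scaled to the length of the gene and the number of reads, in both libraries of at least 1 of these groups. Of those, 10631 did so in both groups, 93 in monoculture alone and 383 in coculture alone. A further rule set apart 59 of the 11107 genes, those whose level in coculture EpCAM+ was under 3% of the level in coculture EpCAM- cells, and the other 11048 are described as the EpCAM+ genes. The series holds 8 RNA-seq libraries of this line in 4 groups of 2: EpCAM+ and EpCAM- cells of each culture, all from total RNA read in pairs of 150 bp. No transgene, knockout or drug is named for any group, and every library shares the Balb/c origin of the line and its serum-containing medium. The protocol has sorted cells frozen at once or after growth with a passage, and it does not tie either to the words monoculture and coculture, which are therefore used here only as names. All cells come from 1 line. Nothing in the labels tells whether both libraries of a group came from separate cultures, so the p-values rest on a spread between libraries that could be purely technical.

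EpCAM is an adhesion protein on the surface of most simple epithelia and of many carcinomas, and it is a common handle for separating epithelial from stromal-like cells by flow cytometry. Epithelial tumour cells respond to interferons through receptors that activate transcription factors, IRF9 among them, which switch on a broad set of antiviral genes and the genes of antigen presentation. The cofactors YAP and TAZ, which act with the DNA-binding TEAD proteins, are best known as readers of cell shape, cell density and matrix stiffness, and they drive genes such as Ctgf, Cyr61 and Ankrd1.

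The 4 EpCAM+ libraries were much alike in size. FPKM summed to between 412709 and 414612 and between 10840 and 11119 genes reached 1 FPKM. The files give no counts of reads, so depth in reads is unknown; depths relative to each other, read from the pile-up of low values, were between 0.914 and 1.0. Over the EpCAM+ genes, log2(FPKM + 1) correlated at r = 0.9979 between the monoculture libraries, 0.9978 between the coculture libraries and 0.9838 to 0.9841 across the cultures, a description over genes of libraries that share a line. The median gene differed by 0.0423 on the log2 scale between the monoculture libraries and by 0.0408 between the coculture libraries. The labelled fraction was borne out by its markers: Epcam (chromosome 17, 87635979 to 87651129), Krt8, Krt18 and Cdh1 were all high in every EpCAM+ library, with Epcam between 129 and 202 FPKM and Krt8 between 3019 and 3354. Leukocyte and endothelial markers were at or near 0, with summed levels of 1.48 to 2.16 FPKM over 16 genes and 0.201 to 0.375 over 10 genes, and adipocyte markers summed to 3.49 to 4.80 over 8 genes, with Pparg the highest. A list of 14 muscle, erythroid and neural markers summed to 9.43 and 9.51 FPKM in monoculture and 14.3 or more in coculture, with Mbp the highest, and its part in the results was not tested.

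Fibroblast and pericyte markers as a group moved with the culture. Their summed level over 27 genes was 46.5 and 46.1 FPKM in the monoculture EpCAM+ libraries and 266 and 268 in the coculture ones, against 14391 to 16378 in EpCAM- libraries. Postn went the other way. It was the highest marker in monoculture EpCAM+ (21.4 and 21.0 FPKM) and the only marker kept among the EpCAM+ genes, with a rise of 0.27 in monoculture on the log2 scale. The median marker stood at 0.140% and 0.139% of its EpCAM- level in monoculture, and at 1.80% and 1.76% in coculture. The highest marker share was 23.2% and 22.7% in monoculture, and 13.6% and 14.8% in coculture. In bulk RNA, fewer cells of a type and less RNA per cell cannot be told apart. Values are therefore also given, where it matters, with the median share of the EpCAM- level subtracted from each EpCAM+ library.

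Between the cultures, 5842 of the 11048 EpCAM+ genes (52.9%) passed an adjusted p of 0.05 in limma, 1944 higher and 3898 lower in monoculture. Over all 12012 genes tested the share was 51.4%, with 16.4% higher and 34.9% lower, so that passing this test did not mark a gene out. Most differences were small. At 2-fold or more, 195 genes passed, 31 higher and 164 lower, against 1.94% of all genes tested, 0.266% higher and 1.67% lower. Of these 195, 43 had met the 1 FPKM rule in 1 culture alone (4 higher, 39 lower), as had 437 of all EpCAM+ genes. For such genes the rule itself favours a direction. The 14 genes past 4-fold were all lower in monoculture, and no gene reached 8-fold on the log2(FPKM + 1) scale, which understates the change of low genes. The monoculture and coculture libraries did not overlap for any of the 195. The same held for 8679 of the 11048 EpCAM+ genes (78.6%), so lack of overlap did not mark a gene out, here or below.

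The balance of directions depended on scaling. Of the genes called with no minimum change, 33.3% were higher in monoculture, against 46.7% after scaling by the median of ratios and 54.9% after quantile normalization. At 2-fold the higher share was 15.9%, against 19.1% and 27.9% (48 higher and 124 lower after quantile normalization). The median of the EpCAM+ genes was -0.06, and these scalings moved it to -0.01 and 0.02. Changes below are log2 differences of FPKM + 1, monoculture minus coculture, and levels are FPKM with monoculture first. Every count of called genes in a list below is to be read beside the 16.4% higher and 34.9% lower over all genes tested.

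**Figure D1:**
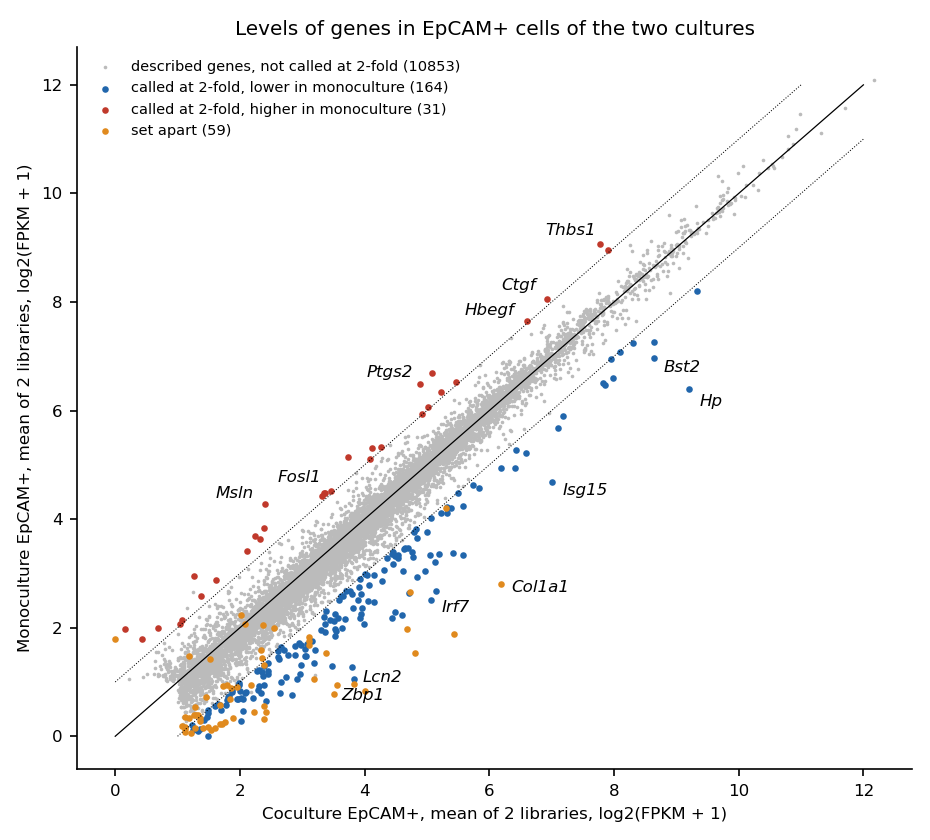
Mean level of each gene in monoculture EpCAM+ (vertical) against coculture EpCAM+ (horizontal), both as log2(FPKM + 1) over 2 libraries, with dotted lines at a 2-fold difference. The 164 genes called lower in monoculture (blue) spread further from the diagonal than the 31 called higher (red), with Hp, Isg15 and Irf7 among the most distant, while Col1a1 belongs to the 59 genes set apart (orange).

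Interferon-stimulated genes formed the most uniform group. Of 45 listed genes, 43 reached the level, all 43 were lower in monoculture, and 33 of them by 2-fold or more. Their median was -1.20, beside -0.06 over all genes tested, and they ran from Zbp1 at -2.77 to Ifit2 at -0.45. The level rule alone could have brought in 10 of them, through coculture; of the 33 that met it in both cultures all were lower, 25 by 2-fold, with a median of -1.39. The 43 were also all called lower under each of 3 other scalings and with the EpCAM- share subtracted (median -1.11).

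Isg15 (chromosome 4, 156199424 to 156200818), a ubiquitin-like protein that interferon induces, stood at 23.5 and 25.9 in monoculture and at 127 and 129 in coculture, a change of -2.33 (SE 0.0502, adjusted p = 5.30e-08, limma). Zbp1, a sensor of Z-form nucleic acid, stood at 1.00 and 1.15 against 13.1 and 13.3 (-2.77, adjusted p = 1.26e-06). Bst2, the membrane tether tetherin, stood at 123 and 126 against 398 and 395 (-1.66, adjusted p = 1.19e-08). For these 3 genes both coculture libraries were at least 3 times as high as either monoculture library, while the pairs within a culture lay close together. Oasl2, of the oligoadenylate synthetase-like family, went from 21.4 and 21.6 in coculture to 3.91 and 3.84 in monoculture (-2.21). Rtp4 went from 41.5 and 42.4 to 8.94 and 9.82 (-2.05). Usp18, the protease that removes ISG15 from proteins and curbs interferon signalling, went from 32.0 and 32.0 to 9.02 and 9.29 (-1.70). The RIG-I-like sensors of viral RNA, Ifih1, Ddx58 and Dhx58, changed less than the genes just named, by -1.02, -0.79 and -0.48. The pairs Ifit3 and Ifit3b, and Oas1a and Oas1g, are near-identical copies whose reads the counting could have split, so their separate values are uncertain.

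Promoters of this group were read for the core of the interferon-stimulated response element, a site of factors that interferon activates, searched as TTTCNNTTTC on both strands (reverse strand GAAANNGAAA). The 250 bases before the start site came from RefSeq's promoter table (GRCm38.p6), which had entries for 33 of the 43 genes, and 15 of these 33 (45.5%) held a match. The share was 3.46% over the 27025 genes of the table and 3.08% over the 8371 matched EpCAM+ genes. It was 22.5% (27 of 120 matched) of the genes lower in monoculture by 2-fold, and none of 19 matched genes higher by 2-fold. The lower genes include 33 of the list itself, so their share partly counts the same promoters again. At a share of 3.08%, a set of 19 is too small for a count of none to tell anything. The 3 promoters shown are those of the called genes of the list with the largest changes that held a match. Capitals mark the matches, which overlap in Isg15 and Gbp3, and each sequence reads 5′ to 3′ on the gene's strand.
Isg15: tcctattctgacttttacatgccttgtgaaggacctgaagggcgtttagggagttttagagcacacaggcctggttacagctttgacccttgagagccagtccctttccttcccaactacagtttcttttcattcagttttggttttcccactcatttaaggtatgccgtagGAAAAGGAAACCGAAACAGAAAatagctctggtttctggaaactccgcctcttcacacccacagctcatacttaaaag
Igtp: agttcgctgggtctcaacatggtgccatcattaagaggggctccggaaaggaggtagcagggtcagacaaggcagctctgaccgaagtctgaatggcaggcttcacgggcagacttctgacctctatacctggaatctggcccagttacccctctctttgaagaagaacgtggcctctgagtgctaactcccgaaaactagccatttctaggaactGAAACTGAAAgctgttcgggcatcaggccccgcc
Gbp3: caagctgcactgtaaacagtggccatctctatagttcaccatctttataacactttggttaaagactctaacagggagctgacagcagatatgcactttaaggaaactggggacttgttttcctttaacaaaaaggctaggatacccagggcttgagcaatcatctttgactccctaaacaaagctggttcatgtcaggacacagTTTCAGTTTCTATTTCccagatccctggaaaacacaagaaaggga

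The Isg15 window is chr4:156200819-156201068 on the minus strand, with matches that begin 78, 72 and 66 bases before the start site. The Igtp window is chr11:58199306-58199555 on the plus strand, with a match at 34 bases, and the Gbp3 window chr3:142559794-142560043 on the plus strand, with matches at 45 and 39 bases. Igtp, an interferon-inducible GTPase, stood at 2.38 and 2.78 in monoculture and 10.6 and 10.5 in coculture (-1.69). Gbp3, a guanylate-binding protein, stood at 3.73 and 3.78 against 14.3 and 14.4 (-1.69). A match is a string of letters and says nothing of binding in these cells. Oasl2 and Ifi44 held no match in this window and fell by 2.21 and 1.91 on the log2 scale.

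Interferon ligands, receptors and signalling genes were lower or not called. Of 17 genes that reached the level (22 listed), 10 fell, none rose and 7 were not called, with a median of -0.31; after quantile normalization 10 fell and 1 rose. Irf7, the factor that amplifies type I interferon responses, stood at 4.93 and 4.52 in monoculture against 32.5 and 32.5 in coculture (-2.55, SE 0.0473, adjusted p = 2.75e-08). Irf9 stood at 9.30 and 8.43 against 26.1 and 26.6 (-1.47). The libraries of the cultures did not overlap for either gene. Stat2 changed by -1.29. The kinase Jak2 changed by -0.65, and Ifnlr1, a chain of the interferon lambda receptor, by -0.47. The receptor chains Ifnar1 (8.51 against 9.10 on average), Ifngr1 (20.1 against 21.9) and Ifngr2 (27.5 against 26.6) were not called.

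Most genes of antigen presentation by MHC class I were lower. Of 17 genes, 12 fell, 3 rose and 2 were not called (median -0.68), with the same counts under all 3 other scalings. Tap2, a subunit of the peptide transporter, stood at 7.45 and 7.10 in monoculture and 29.8 and 30.6 in coculture (-1.92, adjusted p = 1.41e-07). Psmb8, an immunoproteasome subunit, stood at 9.64 and 8.96 against 35.5 and 36.1 (-1.84), and its partner Psmb9 changed by -1.44. B2m, the light chain of every class I molecule, stood at 280 and 289 against 477 and 475 (-0.74), and the heavy chains H2-D1 and H2-K1 changed by -0.99 and -0.93. The calnexin cycle chaperones Canx, Pdia3 and Calr were the 3 that rose, by 0.10, 0.12 and 0.16. The class I genes are a family of close copies, so reads of H2-D1, H2-K1 and H2-L could have been shared.

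**Figure D2:**
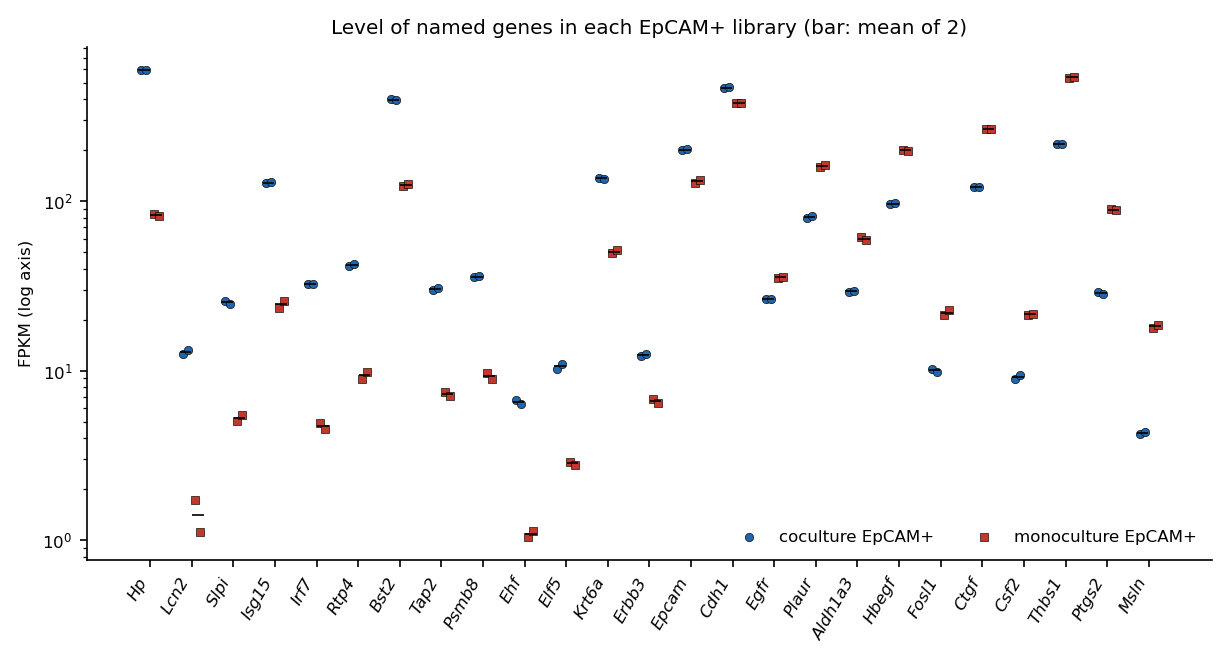
FPKM (log axis) of 25 named genes in each of the 4 EpCAM+ libraries, with a bar at the mean of each culture. Blue circles (coculture) lie above red squares (monoculture) from Hp to Cdh1, red lie above blue from Egfr to Msln, and the 2 libraries of a culture nearly coincide, with Lcn2 in monoculture (1.72 and 1.12) the widest pair.

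Most secreted defence genes at the level were lower in monoculture, among them Hp, which had the largest change on the log2(FPKM + 1) scale. Of 25 listed acute phase and defence genes only 10 reached the level, and 9 of these fell, 8 by 2-fold, with 3 brought in by coculture alone (median -1.35; -1.39 over the 7 that reached the level in both cultures). Hp (chromosome 8, 109575128 to 109579172) encodes haptoglobin, which binds free haemoglobin, and stood at 84.2 and 82.0 in monoculture and at 591 and 591 in coculture, 7.11-fold higher in coculture (-2.82, SE 0.117, adjusted p = 1.39e-06). Lcn2, the iron-siderophore binder lipocalin 2, stood at 1.72 and 1.12 against 12.5 and 13.3 (-2.53). Slpi, an inhibitor of neutrophil elastase, stood at 5.04 and 5.47 against 25.8 and 24.9 (-2.08). In all 3 every coculture library was above every monoculture library. Ceruloplasmin (Cp) changed by -1.24 and the complement component C3 by -1.31. Clu, the chaperone clusterin, was the member that rose, from 1013 and 1025 in coculture to 1323 and 1320.3 in monoculture (0.37).

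Receptors and effectors of the interleukin 6 family, which feed STAT3, were lower as well. Of 11 genes of this list, 7 fell, 2 rose and 2 were not called (median -0.36). Stat3 stood at 23.9 and 23.7 in monoculture and 52.1 and 52.4 in coculture (-1.10, adjusted p = 1.09e-07), and Osmr, the oncostatin M receptor, at 2.30 and 2.27 against 6.67 and 6.74 (-1.23). The shared receptor chain Il6st did not differ by more than the libraries of a culture, at 19.4 on average in both. Cebpb was not called: its coculture libraries disagreed, at 1.79 and 31.6, around the monoculture values of 21.9 and 20.4.

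Chemokines and cytokines moved both ways, 8 higher, 8 lower and 4 not called of 20 (median -0.13). Csf2, the granulocyte-macrophage growth factor, stood at 21.3 and 21.7 in monoculture and 8.97 and 9.49 in coculture (1.13, adjusted p = 1.72e-06). Lif rose by 0.56, and Cxcl5 and Il1a by 0.60 and 0.69. The interferon-induced chemokine Cxcl10 fell by 1.02 on the log2 scale and the death ligand Tnfsf10 by 1.16. Il6 reached the level in coculture alone, at 1.44 and 1.60 against 0.0804 and 0.0622. Of the NF-kB subunits and feedback genes, 9 of 16 were not called; Tnfaip3, the feedback inhibitor A20, rose by 0.65 and Bcl3 fell by 0.85 on the log2 scale.

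Most epithelial adhesion and polarity genes were lower in monoculture. Of 42 genes, all of which reached the level in both cultures, 32 fell, 3 rose and 7 were not called, with a median of -0.35; the median of ratios gave 30 lower and 4 higher, and quantile normalization 27 and 3. Epcam itself stood at 129 and 133 in monoculture and 200 and 202 in coculture (-0.62, SE 0.0333, adjusted p = 5.44e-06). E-cadherin (Cdh1) stood at 378 and 378 against 465 and 469 (-0.30). Both were abundant in both cultures, and their libraries did not overlap. The 5 genes past 2-fold were the epithelial transcription factors Ehf (1.04 and 1.13 against 6.74 and 6.36, -1.86) and Elf5 (2.91 and 2.77 against 10.3 and 10.9, -1.59), the sorting adaptor Ap1m2 (-1.16), the tight junction scaffold Tjp3 (-1.08) and the polarity protein Crb3 (-1.07). Klf5, Prss22 and Ctnnd1 were the 3 that rose, by 0.31, 0.26 and 0.12.

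Several keratins were lower. Of 12, 7 fell, 2 rose and 3 were not called (median -0.37). Krt23 had the largest change, at 0.755 and 0.396 against 4.70 and 4.01 (-1.77), and met the level in coculture alone. Krt6a, a keratin of wounded and hyperproliferative epithelium, stood at 49.3 and 51.4 in monoculture and 138 and 136 in coculture (-1.42), and its near-copy Krt6b changed by -1.43, where reads could be shared. Krt8 was not called (3019 and 3068 against 3304 and 3354, adjusted p = 0.0949), and Krt18 changed by -0.20. Krt7 and Krt80 rose by 0.22 and 0.35. Basal keratins Krt14 and Krt17 fell by 0.32 and 0.57 on the log2 scale, within a basal list of 9 genes with 4 lower, 2 higher and 3 not called. The luminal and milk list had 8 lower, 3 higher and 6 not called of 17, with Elf5 and Lcn2 the furthest down and Aldh1a3 the furthest up. The basal and luminal counts were not far from the shares over all genes tested, 34.9% lower and 16.4% higher. Gata3 and Foxa1, which set luminal identity, were not called (30.5 against 28.7 and 4.99 against 5.48 on average). Mesothelin and membrane mucins had 3 genes at the level: Msln, described below, rose, and Muc1 and Podxl changed by -1.02 and -0.49.

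Receptors of the ERBB family and their ligands split. The 12 genes had 5 higher, 4 lower and 3 not called (median 0.00). Egfr stood at 35.2 and 35.8 in monoculture and 26.4 and 26.4 in coculture (0.42, adjusted p = 1.78e-05), and Erbb3 at 6.77 and 6.42 against 12.1 and 12.5 (-0.81, adjusted p = 1.05e-05). Erbb2, which encodes HER2, stood at 14.3 and 14.3 against 15.1 and 15.8 and was not called (-0.10, adjusted p = 0.0511). Among ligands of EGFR, Hbegf stood at 201 and 199 against 96.0 and 97.3 (1.04) and Areg rose by 0.37, while Epgn and Btc fell by 0.35 and 0.27 on the log2 scale. Nrg1, a ligand of ERBB3, rose by 0.72.

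Hormone receptors were either low or changed by less than 2-fold. The oestrogen receptor gene Esr1 was at or under 0.0694 FPKM in every EpCAM+ library, and the progesterone receptor gene Pgr at 0.360 and 0.356 in monoculture and 0.731 and 0.764 in coculture, so neither was tested. Of 9 receptors that reached the level, 7 fell and 2 rose (median -0.16). The vitamin D receptor Vdr changed by -0.69 and the mineralocorticoid receptor Nr3c2 by -0.66, and the growth hormone receptor Ghr rose by 0.55. Among stem cell markers of breast cancer, 6 rose, 6 fell and 5 were not called of 17. Abcg2, a drug efflux pump, stood at 5.87 and 6.84 against 2.15 and 1.96 (1.26). Aldh1a3, the aldehyde dehydrogenase behind much ALDH activity in breast tumour cells, stood at 61.4 and 58.9 against 29.2 and 29.5 (1.01), and Cd44 at 120 and 120 against 88.9 and 88.2 (0.43). Klf4 was 2-fold lower (5.42 and 5.42 against 12.6 and 11.4), and Cd24a differed by -0.08.

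YAP and TAZ targets were higher in monoculture. All 19 listed genes reached the level, 16 rose, 1 fell and 2 were not called, and the same 16 to 1 split was found under the 3 other scalings. It was also found with the EpCAM- share subtracted. That share was larger in coculture, so subtracting it favours a rise in monoculture and is no separate test of this list. Their median was 0.19, beside -0.06 over all genes tested, and it was 0.32 after quantile normalization and 0.34 with the share subtracted. Ctgf, a matricellular growth factor, stood at 266 and 267 in monoculture and 120 and 121 in coculture (1.13, SE 0.018, adjusted p = 1.38e-08). Ankrd1, a nuclear cofactor, stood at 241 and 243 against 144 and 144 (0.74), and Cyr61 at 493 and 490 against 312 and 313 (0.65). Each of these had both monoculture libraries above both coculture libraries. Lats2, the kinase that restrains YAP, rose by 0.74 and the feedback scaffold Amotl2 by 0.57. The cofactors themselves moved little, with Yap1 at 0.10 and Wwtr1, which encodes TAZ, not called (38.7 and 39.4 against 38.9 and 38.5). Nt5e, which encodes CD73, was the member that fell (-0.46).

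The core of the TEAD site, CATTCC (reverse strand GGAATG), was found in 8 of the 12 matched promoters of this list (66.7%), against 14.4% over the table and 12.6% over the EpCAM+ genes. Of the genes higher by 2-fold, 6 of 19 matched held it (31.6%), and of those lower, 20 of 120 (16.7%). Ankrd1 is shown as the list's member with the largest change that had an entry and a match. Its window is chr19:36119845-36120094 on the minus strand (GRCm38.p6, RefSeq), and the capitals mark matches that begin 210 and 123 bases before the start site.
Ankrd1: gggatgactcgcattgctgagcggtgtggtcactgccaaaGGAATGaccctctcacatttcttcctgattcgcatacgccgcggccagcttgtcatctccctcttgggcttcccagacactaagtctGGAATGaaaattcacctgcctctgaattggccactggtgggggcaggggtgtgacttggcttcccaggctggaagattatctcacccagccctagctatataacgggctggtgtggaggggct

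Matrix, protease and activin genes moved both ways. Of 22 integrins and laminins, 10 rose, 5 fell and 7 were not called (median 0.09). Thbs1 (chromosome 2, 118111876 to 118127133), which encodes thrombospondin 1, stood at 536 and 541 in monoculture and 218 and 216 in coculture (1.31, SE 0.0175, adjusted p = 5.68e-09). The collagen- and laminin-binding integrins Itga2 and Itga3 rose by 0.85 and 0.65, while the laminin 332 chains Lamb3 and Lama3 fell by 0.56 and 0.39 on the log2 scale. Of 18 metalloproteinases and plasminogen genes, 11 rose, 6 fell and 1 was not called (median 0.37). Plaur, the urokinase receptor, stood at 158 and 163 against 79.7 and 81.3 (0.98), and its ligand Plau at 553 and 557 against 382 and 385 (0.53). Mmp9 was low, at 2.38 and 2.56 against 0.333 and 0.368 (1.36), and reached the level in monoculture alone.

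Of 19 TGF-beta, BMP and activin genes, 10 rose, 4 fell and 5 were not called (median 0.13; 14 and 2 under the median of ratios). Inhba, the activin A subunit, stood at 529 and 525 against 303 and 309 (0.78), and Fst, which binds and blocks activin, at 12.3 and 11.5 against 3.70 and 3.73 (1.45). In both, each monoculture library was above each coculture library. Inhbb, the subunit of activin B, fell by 0.55 on the log2 scale. In the Notch pathway the receptor Notch3 was lower (9.83 and 10.0 against 24.0 and 23.4, -1.18) and the ligand Jag1 higher (0.55), with 6 lower, 3 higher and 3 not called of 12.

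Immediate early and AP-1 genes moved in both directions, 11 higher, 12 lower and 3 not called of 26. Fos, a subunit of AP-1, stood at 124 and 122 in monoculture and 249 and 247 in coculture (-1.01), and Fosl1, another, at 21.2 and 22.8 against 10.2 and 9.88 (1.06). So 2 genes for AP-1 subunits changed 2-fold in opposite directions with no overlap between cultures. Egr1 fell by 0.73 and Atf3 by 0.88 on the log2 scale. Dusp5, a phosphatase of nuclear ERK, rose by 1.20 and Myc by 0.67. Of the prostaglandin genes, 5 of 10 rose, 2 fell and 3 were not called. Ptgs2 (chromosome 1, 150100031 to 150108227), which encodes the inducible cyclooxygenase COX-2, stood at 90.0 and 88.4 against 29.0 and 28.5 (1.60, SE 0.023, adjusted p = 8.76e-09), and Ptgs1, the constitutive form, at 0.655 and 0.544 against 2.39 and 1.81 (-0.95). Of 23 p53 genes, 12 rose, 6 fell and 5 were not called (median 0.10), with Plk2 (0.55), Pmaip1 (0.52), Gadd45a (-0.66) and Perp (-0.44) the furthest of those called.

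**Figure D3:**
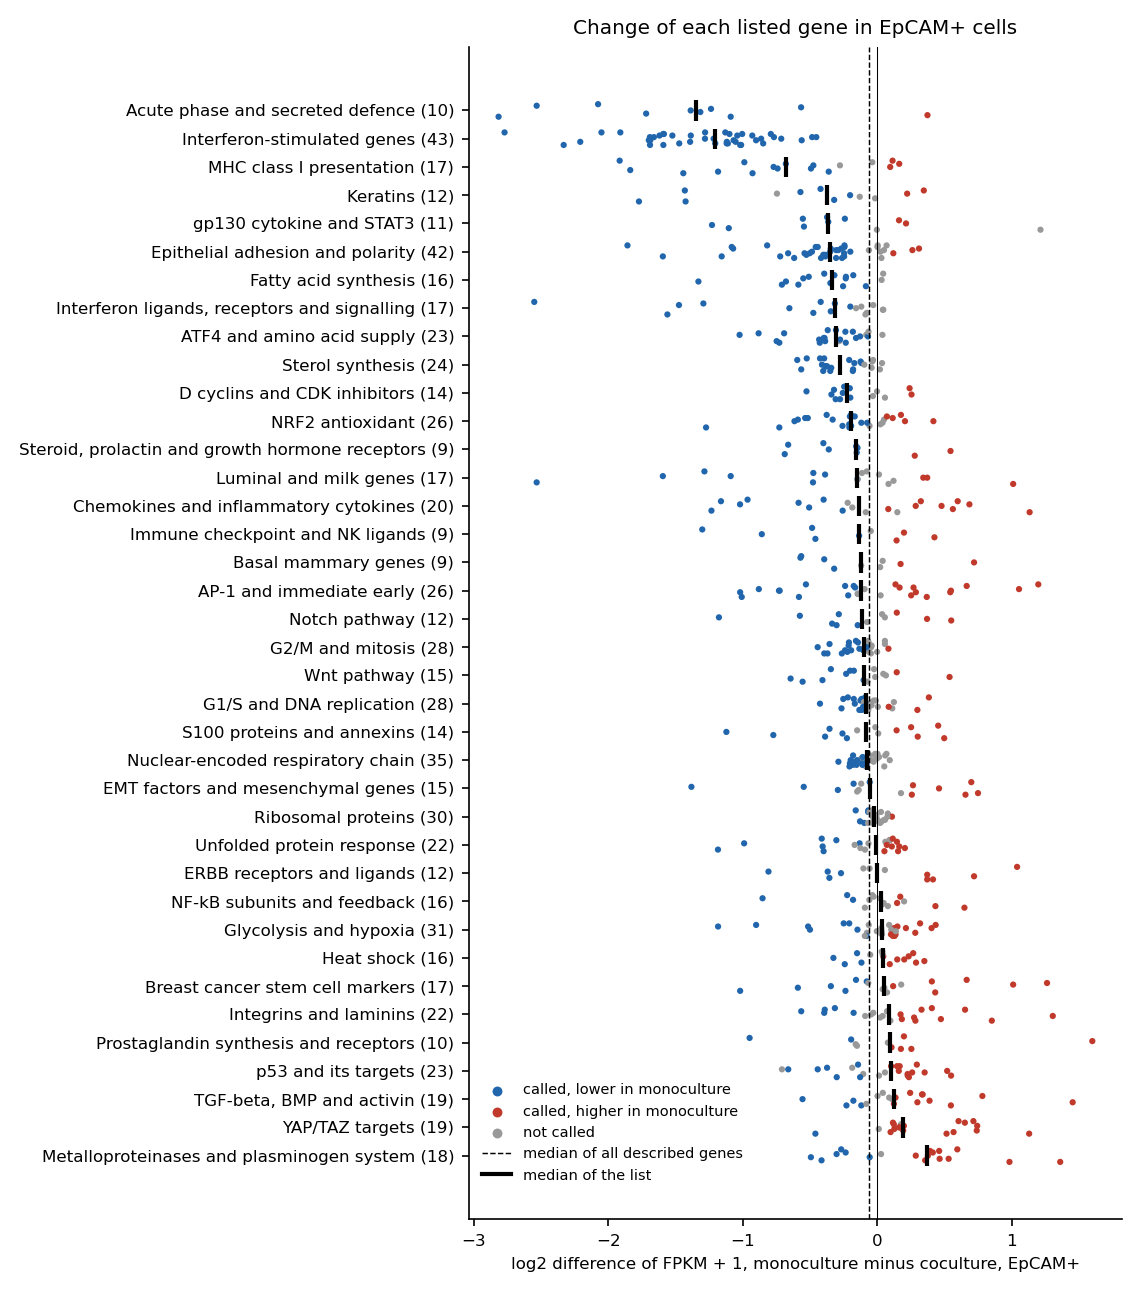
Change of each listed gene between the cultures in EpCAM+ cells, as a log2 difference of FPKM + 1 (monoculture minus coculture), for the 38 lists with at least 9 genes at the level, ordered by list median (thick bars), with the number of genes in brackets. Acute phase genes (median -1.35) and interferon-stimulated genes (-1.20) lie furthest below the median of all EpCAM+ genes (-0.06, dashed line), and metalloproteinases and plasminogen genes (0.37) and YAP and TAZ targets (0.19) furthest above.

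Cell cycle lists stood close to the median of all genes tested (-0.06), of which 34.9% were lower. Of 28 G2/M genes, 16 fell, 1 rose and 11 were not called (median -0.10; 13 and 2 under the median of ratios), and of 28 G1/S and replication genes 14 fell, 3 rose and 11 were not called (median -0.08; 7 and 5 under the median of ratios). Mki67, a marker of cycling cells, stood at 43.3 and 42.8 in monoculture and 56.6 and 55.2 in coculture (-0.37, adjusted p = 5.26e-04). Ccnd1, cyclin D1, stood at 789 and 784 against 977 and 971 (-0.31). Rrm2 and Ccne2 went the other way, by 0.30 and 0.39. Ribosomal protein genes were mostly not called (24 of 30), and their calls turned with scaling, 5 lower and 1 higher as deposited, 17 and 2 after quantile normalization, but 1 and 8 with median-of-ratios scaling.

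Lipid and amino acid supply genes were lower. Of 16 fatty acid synthesis genes 14 fell and none rose (median -0.33), of 24 sterol synthesis genes 18 fell and none rose (-0.27), and of 23 genes of the ATF4 amino acid response 19 fell and none rose (-0.31); under the median of ratios each of these lists had 1 gene higher. Scd1, the desaturase that makes oleate, stood at 18.1 and 17.8 in monoculture and 46.1 and 47.2 in coculture (-1.33, adjusted p = 1.98e-08), and Srebf1, the master factor of lipogenesis, at 30.3 and 30.1 against 45.0 and 44.3 (-0.55). The sterol enzymes moved less, with Lss the furthest at -0.59. Nupr1, a stress-induced chromatin protein, stood at 133 and 135 against 271 and 277 (-1.02). Trib3 and Ddit3, stress targets of ATF4 counted here in the unfolded protein list, changed by -1.18 and -0.99, while the chaperones Pdia6, Hyou1 and Manf of that list rose by 0.21, 0.16 and 0.15. The NRF2 list had 17 lower, 5 higher and 4 not called of 26 (median -0.19), led by the microsomal glutathione transferase Mgst1 (22.8 and 22.6 against 56.4 and 56.0, -1.27). Glycolysis and hypoxia genes were mixed, 11 higher, 8 lower and 12 not called of 31. The carbonic anhydrase Car12 changed by -1.18 and Aldoc by -0.90, whereas abundant enzymes such as Eno1 and Pgam1 rose by 0.15 and 0.32. Of 35 respiratory chain genes 15 fell, none rose and 20 were not called (median -0.08), against 34.9% lower over all genes tested, and under the median of ratios 9 fell and 3 rose.

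Of the 10 genes furthest up in monoculture, Msln (chromosome 17, 25748613 to 25754378) led. It encodes mesothelin, a surface protein of mesothelium and of several carcinomas, and stood at 17.9 and 18.6 in monoculture and 4.23 and 4.37 in coculture (1.86, SE 0.0508, adjusted p = 1.75e-07). Nppb, a natriuretic peptide, stood at 5.93 and 7.59 against 1.27 and 1.53 (1.69), and Akap12, a scaffold of protein kinase A, at 102 and 103 against 33.3 and 32.6 (1.61). These 3 had no overlap between cultures. After Ptgs2, Fst and Thbs1, described above, came Ddah1, which degrades methylated arginines (1.45), the potassium chloride cotransporter Slc12a4 (1.31), Tmem171 (1.29) and Oaz1. Oaz1, which encodes the antizyme of ornithine decarboxylase, varied within each culture, at 23.1 and 45.6 against 16.1 and 8.63 (1.39, adjusted p = 0.041). In limma it was not called with no filter on low values (adjusted p = 0.0985), with robust eBayes (0.144) or with eBayes without trend (0.0597). Nor was it called without monoculture EpCAM+ replicate 2 (0.91), coculture EpCAM+ replicate 2 (0.97) or either coculture EpCAM- library (1.39).

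Of the 10 furthest down, those in no list were Apol9a and Apol9b, close copies that may share reads (-2.48 and -2.37), the protease inhibitor Wfdc3 (3.66 and 3.39 against 20.5 and 21.0, -2.26) and the flavin monooxygenase Fmo2 (8.91 and 9.21 against 45.7 and 47.6, -2.24).

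Subtracting the EpCAM- share moved the EMT list. It had 6 higher, 5 lower and 4 not called of 15. With the share subtracted, 9 were higher and none lower, and the median moved from -0.06 to 0.36. The share was larger in coculture, so its subtraction favours this direction for genes expressed in EpCAM- cells. Zeb1 (2.96 and 3.25 in monoculture against 1.54 and 1.34, 0.75), Zeb2 (0.70) and Fn1, fibronectin (1279 and 1289 against 822 and 805, 0.66) were higher either way, as was Vim (0.27). Sparc, a collagen-binding glycoprotein just outside the 3% limit at 3.39%, differed within each culture (6.11 and 12.8 against 17.8 and 34.5, -1.38, adjusted p = 0.0116). In limma it was not called with the share subtracted (adjusted p = 0.733), with robust eBayes (0.069) or with only the EpCAM+ libraries (0.0572). Nor was it called without monoculture EpCAM+ replicate 1 (-0.90) or coculture EpCAM+ replicate 2 (-0.92).

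The 59 genes set apart were chosen by their coculture level, so their change is a description. They held 19 of the 27 fibroblast and pericyte markers, 21 had also reached the level in monoculture, and all but Lce1h, which was listed at 0 in both coculture EpCAM+ libraries and at 2.52 and 2.41 in monoculture, were expressed in EpCAM- cells at 40.3 FPKM or more in coculture. Col1a1 was the highest, at 5.94 and 6.05 in monoculture and 72.5 and 71.8 in coculture, which is 0.168% and 1.72% of its EpCAM- level. Col1a2 stood at 2.57 and 2.79 against 41.8 and 42.2, and Bgn at 1.95 and 1.85 against 26.2 and 27.8. With the share subtracted, the value of Col1a1 became 1.00. Col1a1 is among the markers that set the subtracted share, so this tests nothing. Just inside the limit were Dpysl3 (2.999%) and Prl2c2 (2.92%), and just outside Masp1 (3.02%) and Col16a1 (3.05%).

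**Figure D4:**
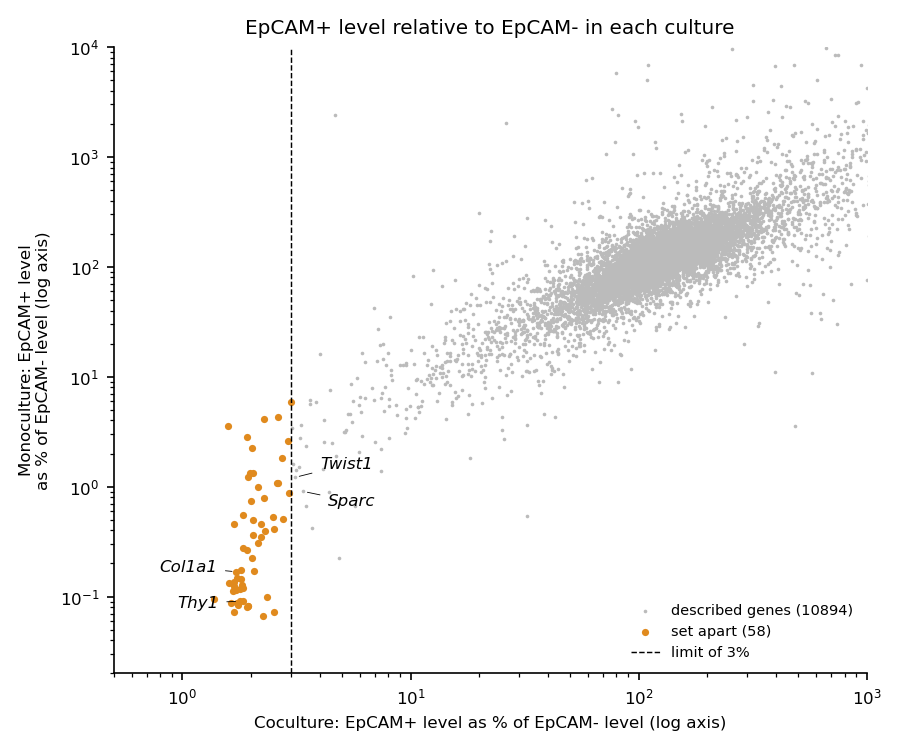
Level of each gene in EpCAM+ cells as a percentage of its level in EpCAM- cells, for monoculture (vertical) against coculture (horizontal), both on log axes, with the 3% limit dashed. The set apart genes (orange, 58 with a value above 0 on both axes) lie left of the limit and most of them below 1% in monoculture, with Col1a1 at 1.72% and 0.168%, while 10180 of the described genes (grey) lie within the axes, to the right.

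Whether a difference between cultures was particular to EpCAM+ cells was tested as an interaction, the change in EpCAM+ minus the change in EpCAM-. It was called for 7146 of the 11048 genes, 64.7%, against 65.2% of all genes tested, and at 2-fold for 704 (6.37%), against 8.09%. Of the 31 genes higher by 2-fold in EpCAM+, 29 had a called interaction, and in EpCAM- 4 were higher and 5 lower by 2-fold. Of the 164 lower ones, 154 had a called interaction, and in EpCAM- 47 were lower and 7 higher by 2-fold. Both sets were chosen by a large EpCAM+ change, which is itself a term of the interaction. Their counts of called interactions are therefore raised by the choice and do not test whether the change was particular to EpCAM+. For 71 of the 164 and 10 of the 31 no change was called in EpCAM-. Some of these genes were at 0 in every EpCAM- library, among them Sftpd, Krt23 and Krt6b. For such genes the interaction equals the EpCAM+ change (-1.84, -1.77 and -1.43), so it is no further test of them.

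The gene groups are set here beside all 11048 EpCAM+ genes, of which 2945 had a called positive and 4201 a called negative interaction. Of the 33 interferon-stimulated genes at the level in both EpCAM+ cultures, 30 were lower and 2 higher in monoculture EpCAM-. The median of the 43 was -2.06 in EpCAM-; the interaction was positive for 31 and negative for 8 of the 43, and for 33 and 5 to 7 under the 3 other scalings. Usp18 fell by 1.70 on the log2 scale in EpCAM+ and by 5.00 in EpCAM- (interaction 3.30, SE 0.048, adjusted p = 5.26e-09), Bst2 by 1.66 and 4.89, and Irf7 by 2.55 and 4.75. On this scale Zbp1 went the other way, with -2.77 in EpCAM+ and -0.99 in EpCAM-. Its EpCAM- means were only 0.0613 FPKM in monoculture and 1.12 in coculture, where the added 1 compresses the change. The sign of its interaction therefore depends on the scale, and negative interactions of other genes near 0 in EpCAM- have the same limit. The interaction of the acute phase genes was negative for 9 and positive for 1 of 10. Hp differed by -2.82 in EpCAM+ and -0.47 in EpCAM- (adjusted p of the interaction 1.11e-05), where its means were 0.420 FPKM in monoculture and 0.975 in coculture. The 10 genes were at 3.11 FPKM or less in every EpCAM- library. For genes this close to 0 the interaction largely repeats the EpCAM+ change, so it is little further test of them. The antigen transporter Tap2 differed by -1.92 in EpCAM+ and rose by 0.17 in EpCAM-, while Tap1 had no called interaction (-1.18 and -1.15, adjusted p of the interaction 0.71). Egfr, Hbegf and Inhba rose in EpCAM+ (0.42, 1.04 and 0.78) and fell in EpCAM-, by 1.03, 1.49 and 1.56 on the log2 scale. Msln was close to 0 in EpCAM- and changed there by 0.03. The interaction of the YAP and TAZ targets was called for 12 of 19, near the 64.7% of all EpCAM+ genes, with 10 positive and 2 negative. Ctgf differed by 1.13 and -0.15 in the fractions, and Lats2 by 0.74 and 0.68, with no called interaction for Lats2 (adjusted p = 0.242).

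**Figure D5:**
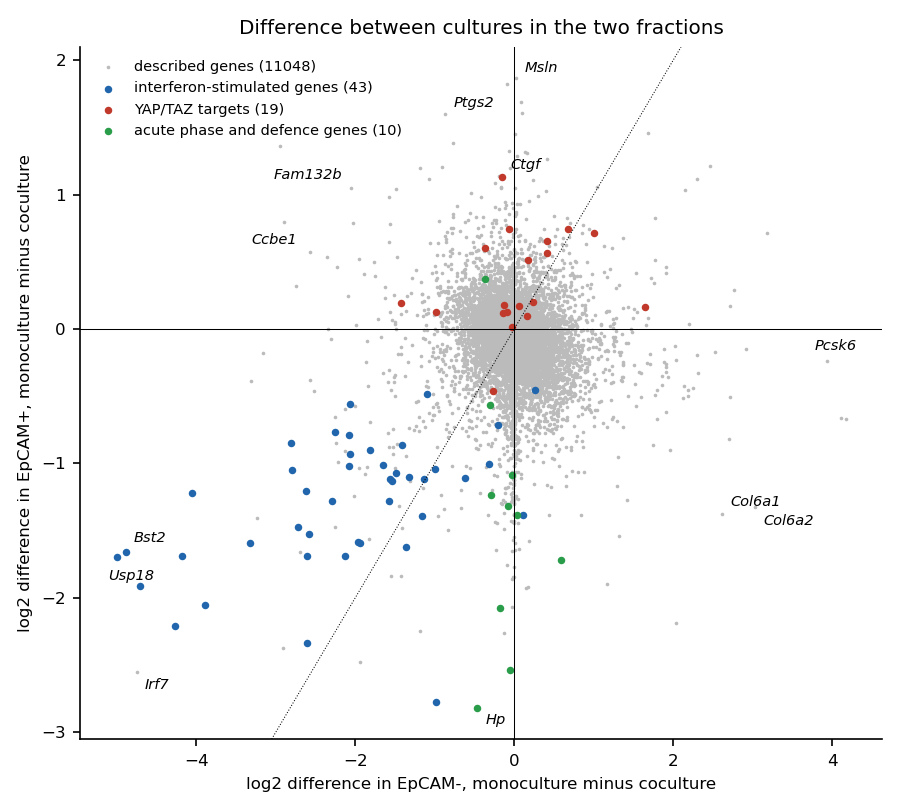
Log2 difference between cultures (monoculture minus coculture) in EpCAM+ cells (vertical) against that in EpCAM- cells (horizontal) for the 11048 described genes, with equal change on the dotted line. Interferon-stimulated genes (blue) lie to the lower left, above the line where the EpCAM- change is larger, with Usp18 at -1.70 in EpCAM+; acute phase genes (green) lie near the vertical axis, below 0 except for Clu at 0.37, and most YAP and TAZ targets (red) lie above 0.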

How the data were processed

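RNA of 8 libraries was measured. The deposited values are FPKM per gene, a file per library, made by the authors; per the submitters' processing notes the tools included HISAT2, HTSeq, edgeR, cutadapt, FastQC and SAMtools, with the build mm10. Which tool wrote the FPKM, with which annotation, and how shared reads were handled is not given in the sources used here. The files hold 0 mitochondrially encoded genes.

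The 12012 genes with 1 FPKM in 2 or more of the 8 libraries were fitted as log2(FPKM + 1) in limma 3.58.1 (R 4.3.3), with cell means of 4 groups, a trend in eBayes and 4 residual degrees of freedom. Two-sided p-values were adjusted over all genes tested (Benjamini-Hochberg); 2-fold calls need a log2 difference of 1 as well. With 2 libraries against 2, the smallest p of an exact permutation test is 0.333. The fit was tested on simulated data. Python 3.11.15, pandas 2.3.3, NumPy 2.4.6, SciPy 1.17.1 and matplotlib 3.10.9 made the tables and figures. Of 24421 gene names, 23334 matched a GENCODE gene, which gave coordinates (GRCm38).

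Members, 44 gene lists (953 of 956 genes in the files) and the naming rule were chosen with earlier results of these data known. The rule took the 10 highest and 10 lowest changes among genes called at 2-fold with no overlap and a higher-group mean of 5 FPKM (no Gm or Rik names or pseudogenes), up to 4 called genes of each list, 22 key genes, the 4 highest and 4 lowest interactions by the same limits, and the 4 highest genes set apart; other genes given with values were chosen after their values were seen. Some items the rule takes are not reported here. Alternatives were pseudocounts of 0.1 and 0.5, no filter or one of 5 FPKM, 3 other scalings, other eBayes settings, a replicate block, only the EpCAM+ libraries, each library left out, limits of 1% and 10% in place of 3%, and the EpCAM- share subtracted.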

Additional observations from a re-analysis of the deposited data

Results flagged for a closer look

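The results below stand out because the difference between the cultures was not the same in the 2 sorted fractions, by the interaction term of the limma fit, and are the 4 highest and 4 lowest among genes called at 2-fold with at least 5 FPKM in EpCAM+ cells. Positive values belong to genes that fell further in EpCAM-, or rose in EpCAM+ and fell in EpCAM-. Usp18 had an interaction of 3.30 on the log2 scale, with means of 9.16 and 32.0 FPKM in monoculture and coculture EpCAM+ and of 0.335 and 41.6 in EpCAM-. Bst2 had an interaction of 3.23, with 125 and 397 in EpCAM+ and 10.3 and 334 in EpCAM-. Ccbe1, a matrix protein of lymphatic vessel growth, had an interaction of 3.14, with 35.5 and 23.5 in EpCAM+ and 5.54 and 37.7 in EpCAM-. Fam132b, which encodes the iron hormone erythroferrone, had an interaction of 3.10, with 494 and 238 in EpCAM+ and 3.11 and 16.05 in EpCAM-.

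Negative values belong to genes that were lower in monoculture EpCAM+ and higher in monoculture EpCAM-. Col6a2 and Col6a1, neighbouring genes on chromosome 10 for chains of type VI collagen, had interactions of -4.34 and -3.99. Col6a2 stood at 89.9 and 226 in EpCAM+ and 140 and 16.3 in EpCAM-, and Col6a1 at 87.9 and 229 in EpCAM+ and 230 and 36.8 in EpCAM-. Both were higher in coculture EpCAM+ than in coculture EpCAM-. Srp54a, which has close copies that may share reads, had an interaction of -4.22, and Pcsk6, a proprotein convertase, one of -4.17, with 16.1 and 19.1 in EpCAM+ and 32.7 and 1.21 in EpCAM-.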

How the results depend on the processing

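With no minimum change, between 4964 and 5898 of the EpCAM+ genes were called under the alternatives that kept all libraries or only those of EpCAM+, and between 4581 and 5911 with a library left out (5842 as reported). At 2-fold the count lay between 148 and 254, except for 340 with a pseudocount of 0.1, and between 196 and 204 with a library left out (195). The interaction at 2-fold was called for 704 genes, for 1139 with a pseudocount of 0.1, and for 693 to 724 with a library left out. Of the 195 genes, 154 were also called after quantile normalization and 175 after the median of ratios. The replicate numbers did not pair the libraries (r = -0.047 between deviations of the EpCAM+ groups), and with the number as a replicate block 5685 genes, 196 at 2-fold and 704 interactions were called. With the EpCAM- share subtracted, Col1a1, which was set apart and is among the markers that set the share, reversed to 1.00 by construction. Of 3999 other values of 183 named genes, 3940 kept direction and side of the threshold, 53 lost the call and 5 gained it. Those that lost it somewhere were Oaz1, Sparc, Hey2, Traf2, Cd24a, Mbp, Gstm2, Pparg, Rpl3, Rpl13 and Rpl30, and those that gained it Erbb2 and Krt8. Col1a2 and Bgn, both set apart, lost it by the subtraction itself. Because depth in reads is unknown, no counting error or limit of detection can be given, and with 2 libraries a group the spread is pooled over groups.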

Other observations

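Genes in no list, chosen after their values were seen, filled much of the 2-fold set. Lower in monoculture were the lipid receptor Ffar4 (-2.07), the monooxygenase Fmo1 (-1.93), the carbonyl reductase Cbr2 (-1.90), the surfactant protein Sftpd (-1.84), the chemokine Cxcl17 (-1.65), the potassium channel Kcnq1 (-1.57), the GABA receptor subunit Gabrp (-1.28) and the water channel Aqp5 (-1.10). Gabrp was abundant, at 59.2 and 57.9 FPKM in monoculture and 143 and 145 in coculture. Nkd2, which curbs Wnt signalling, stood at 96.3 and 95.9 against 252 and 252 (-1.38), and rose by 0.84 in EpCAM-. Lgals3, galectin 3, stood at 150 and 152 against 319 and 312 (-1.06), and rose by 0.73 in EpCAM-. Ifitm3, an interferon-induced membrane protein outside the list used, stood at 288 and 298 against 638 and 645 (-1.13).

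Higher in monoculture were the late cornified envelope gene Lce1g (3.02 and 2.87 against 0.142 and 0.0868, 1.82), the psoriasin-family gene S100a7a (1.32), the cytochrome Cyp1b1 (80.3 and 80.0 against 36.5 and 36.3, 1.12), the regulator of G protein signalling Rgs16 (1.11), the caveolar coat protein Cav1 (1.06) and the actin bundler Fscn1 (90.1 and 91.5 against 42.1 and 44.6, 1.05). Median change by chromosome was taken over EpCAM+ genes on an autosome or X with 5 FPKM or more in the higher culture. It lay between -0.08 on chromosome 17 and 0.04 on chromosome 8.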
